A study of Mus musculus with 28 samples.

Results

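The loci of Col1a1, Col1a2 and Col3a1, which encode the chains of the fibrillar collagens type I and type III, were examined for accessible chromatin in 28 mouse ATAC-seq peak lists of 14 groups with 2 libraries each. ATAC-seq uses a transposase that inserts into open chromatin, and a peak is a stretch where such insertions pile up. A peak belonged to a locus when it overlapped a fixed mm9 window by at least 1 bp: chr11:94740000-94870000 for Col1a1 (130 kb), chr6:4400000-4550000 for Col1a2 (150 kb) and chr1:45310000-45460000 for Col3a1 (150 kb). Of 2048700 peaks in all lists, 742 lay in the windows, 311 of them at Col1a1, 269 at Col1a2 and 162 at Col3a1. Peaks entered by position alone.

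Type I collagen is built from the products of Col1a1 and Col1a2 and is the main fibre of skin, tendon, bone and the connective tissue that fibroblasts lay down. Type III collagen, a trimer of the Col3a1 product, forms finer fibres in stretchable tissues and in young or healing connective tissue. Fibroblasts are a major source of these fibres, whereas skeletal muscle cells sit within a matrix largely made by neighbouring cells. The loci are therefore read as markers of fibroblast identity in experiments that turn fibroblasts into muscle cells. MyoD, the factor induced here, is a basic helix-loop-helix protein that binds E-boxes and can drive that turn.

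The fibroblasts (MEF14) were labelled as mouse embryonic fibroblasts (E13.5 embryos) with Rosa-rtTA, a doxycycline-inducible MyoD transgene named Col1a1-tetO-MyoD, and the reporter Pax7-nGFP. They were taken untreated (day 0), with doxycycline at 2 µg/ml and the small molecules forskolin (5 µM), RepSox (5 µM) and the GSK3β inhibitor CHIR99021 (3 µM) on days 2, 4, 6 and 8 (Dox+FRG), as Dox+FRG libraries with GFP in their name on days 8 and 10, with doxycycline alone on days 4 and 8 (Dox), and with the small molecules alone on day 8 (FRG). FRG was taken as the initials of the small molecules, and the treated media all held basic FGF at 10 ng/ml as far as the labels describe them. Satellite cells, which are the resident stem cells of muscle, were taken quiescent and activated from adult Pax7-nGFP mice of 10 to 12 weeks. For expanded satellite cells the labels give basic FGF at 5 ng/ml. If the activated cells were expanded in this way, their state cannot be told apart from culture with basic FGF. The last groups, MEF10 MyoD+FRG and MEF10 MN+FRG of day 6, carry names that the labels do not spell out, and their transgenes are not described. The name of the MyoD transgene places it at Col1a1 in the MEF14 cells, and the satellite cell mice are not said to carry it, so at Col1a1 a difference between these sources cannot be told apart from the transgene. Doxycycline induces that transgene. At Col1a1 a difference between MEF14 libraries with and without doxycycline therefore cannot be told apart from induction of the transgene at that place.

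The lists held 37301 to 134997 peaks, and the most common peak width ran from 61 bp in an FRG list to 500 bp in MEF10 MyoD+FRG replicate 2, a list that covered 92.9 Mb against a median of 15.8 Mb. No list gave a score or read number, so depth per library is unknown. The 2 FRG lists were the longest and the satellite cell lists among the shorter, and counts are therefore also given per 10000 listed peaks. Whether the 2 libraries of a group stem from different cultures or animals is not stated, and the p-values then reflect only how far these libraries spread, which may be technical. Cell types could not be checked against marker loci, because no mm9 annotation was used here, and for the same reason no peak is assigned to an exon, intron or promoter.

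In RefSeq's gene order (GRCm38.p6) Col1a1 is followed by Sgca, which encodes a sarcoglycan of the muscle membrane complex, and then by Hils1, Ppp1r9b and Samd14. Col1a2 lies before Casd1 and Sgce, and Col3a1 is followed by Col5a2, which encodes a chain of type V collagen, itself a fibrillar collagen that assembles with type I. Peaks in a window can thus belong to a neighbour. The promoter sequences of Col1a2 and Col3a1 (the 250 bases before the start, 5′ to 3′ on the plus strand of chromosomes 6 and 1, RefSeq, GRCm38.p6) are shown because MyoD acts through E-boxes and because the 2 promoters differ in their motifs. Of the 3 genes, 2 were matched in the promoter table. Capitals mark matches to the motifs searched on both strands: the E-box CANNTG, its form CAGCTG, the AP-1 motif TGANTCA and CCAAT.
Col1a2: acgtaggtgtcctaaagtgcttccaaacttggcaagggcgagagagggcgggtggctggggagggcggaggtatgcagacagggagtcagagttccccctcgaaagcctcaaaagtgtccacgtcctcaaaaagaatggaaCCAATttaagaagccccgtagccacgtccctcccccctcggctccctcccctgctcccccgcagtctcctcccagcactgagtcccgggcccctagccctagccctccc
Col3a1: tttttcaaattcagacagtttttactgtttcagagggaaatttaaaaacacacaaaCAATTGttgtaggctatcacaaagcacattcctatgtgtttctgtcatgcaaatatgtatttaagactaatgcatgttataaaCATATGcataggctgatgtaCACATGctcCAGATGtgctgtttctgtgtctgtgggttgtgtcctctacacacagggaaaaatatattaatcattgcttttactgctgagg
The Col1a2 promoter was GC-rich (62.0%) and held 1 CCAAT, 109 bases before the start, and no E-box or AP-1 match. The Col3a1 promoter had a GC content of 35.2% and held 4 E-boxes, at 194, 111, 91 and 82 bases before the start, none of them CAGCTG, and no CCAAT or AP-1 match. Over 32851 promoters of the same length, 66.2% held CANNTG, 13.0% CAGCTG, 6.75% TGANTCA and 33.8% CCAAT, so an E-box in such a window is common. A match is a description of letters and not of binding, and the peaks below are in mm9 and were not laid over these sequences.

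The number of peaks differed among the loci and among the groups. At Col1a1 the day 0 fibroblasts had 13 and 12 peaks, the Dox+FRG libraries 8 and 8 on day 2, 12 and 9 on day 4, 11 and 11 on day 6 and 10 and 8 on day 8. At the same locus the GFP libraries had 8 and 8 on day 8 and 9 and 10 on day 10, the quiescent satellite cells 12 and 10 and the activated ones 8 and 9. Both FRG libraries stood above every other library at Col1a1, with 22 and 19 peaks, while Dox had 13 and 12 on day 4 and 13 and 14 on day 8. The FRG lists were also the longest, and the share of tiles where FRG stood highest was not computed. MEF10 MyoD+FRG gave the lowest single count, 4, beside 12 in its second library, and MEF10 MN+FRG had 12 and 14.

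Col1a2 had 10 and 8 peaks on day 0, 9 and 7 in Dox+FRG on day 2, 7 and 7 on days 4 and 6 alike, and 11 and 8 on day 8. The GFP libraries had 8 and 6 on day 8 and 8 and 8 on day 10, quiescent satellite cells 8 and 4 and activated ones 7 and 7. The highest Col1a2 counts were those of Dox day 8 (15 and 16), FRG (15 and 16), MEF10 MN+FRG (15 and 12) and Dox day 4 (10 and 14), and MEF10 MyoD+FRG had 7 and 12. Dox day 8 and FRG did not overlap day 0, but both also had longer lists. On unscaled counts, 32.0% of all features were called higher than day 0 on Dox day 8 and 44.6% in FRG. The share of tiles with such a separation in counts was not computed.

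Col3a1 had the fewest peaks of the 3 windows in most groups. Day 0 had 7 and 8, and Dox+FRG had 6 and 2 on day 2, 4 and 3 on day 4, 2 and 3 on day 6 and 3 and 2 on day 8. As counts, no Dox+FRG library without GFP reached day 0. Per 10000 listed peaks, Dox+FRG day 2 replicate 1 (1.00) lay above day 0 replicate 1 (0.989), with a shorter list (59721 against 70756 peaks). The share of tiles with such a separation in counts was not computed. The GFP libraries had 2 and 4 on day 8 and 4 and 6 on day 10, quiescent satellite cells 6 and 5, activated ones 5 and 4. Dox had 6 and 5 on day 4 and 8 and 9 on day 8, FRG 13 and 13, MEF10 MyoD+FRG 2 and 7 and MEF10 MN+FRG 11 and 12.

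**Figure D1:**
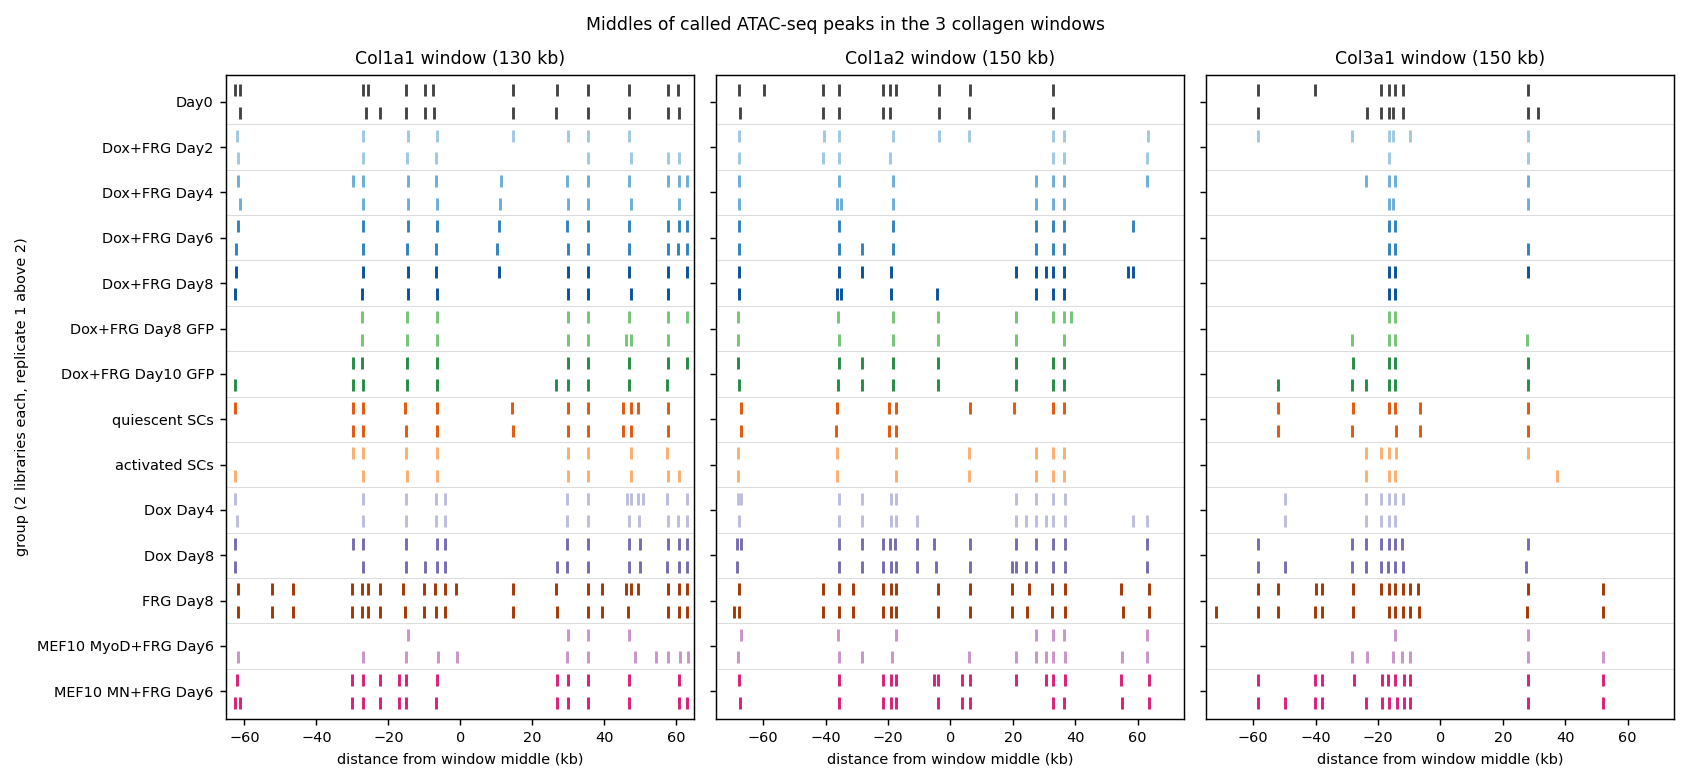
Middles of the called peaks in the 3 windows, with distance from the window middle in kb on the x axis and the 28 libraries as rows, 2 per group and coloured by group. Marks have a fixed width and show place, not peak width. Some positions carry a mark in nearly every row, the FRG rows hold the most marks at Col1a1, and the Col3a1 rows of Dox+FRG days 6 and 8 hold 2 or 3 marks each.

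Scaled to list length, the order of the groups changed. Day 0 had 1.81 ± 0.0421 (SD, n = 2) Col1a1 peaks per 10000, 1.30 ± 0.161 at Col1a2 and 1.09 ± 0.139 at Col3a1. A genomic tile of 150 kb had a median of 0.727 per 10000 on day 0, and 4.98% of tiles had at least as many peaks as the Col1a1 window, 19.2% as many as Col1a2 and 29.3% as many as Col3a1. At Col1a1 the highest scaled value was that of quiescent satellite cells, 2.36 ± 0.399, followed by day 0 and by the GFP libraries of day 8 at 1.77 ± 0.0979. The lowest at Col1a1 was Dox day 8, 1.13 ± 0.0898, next to MEF10 MyoD+FRG at 1.19 ± 0.170, 2 groups that overlapped. At Col1a2 the group means lay between 1.07 ± 0.0081 (Dox+FRG day 6) and 1.61 ± 0.0427 (Dox+FRG day 8), and most neighbours in that order overlapped. At Col3a1 the highest means were 1.23 ± 0.0697 in MEF10 MN+FRG, 1.18 ± 0.199 in quiescent satellite cells and the day 0 value, and the lowest were 0.383 ± 0.106 on Dox+FRG day 6 and 0.421 ± 0.0371 on day 8. Over the 14 group means the 3 windows did not move as one: Pearson's r was -0.30 for Col1a1 with Col1a2, 0.32 for Col1a1 with Col3a1 and -0.10 for Col1a2 with Col3a1, given as a description over groups that share list length as their scale.

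**Figure D2:**
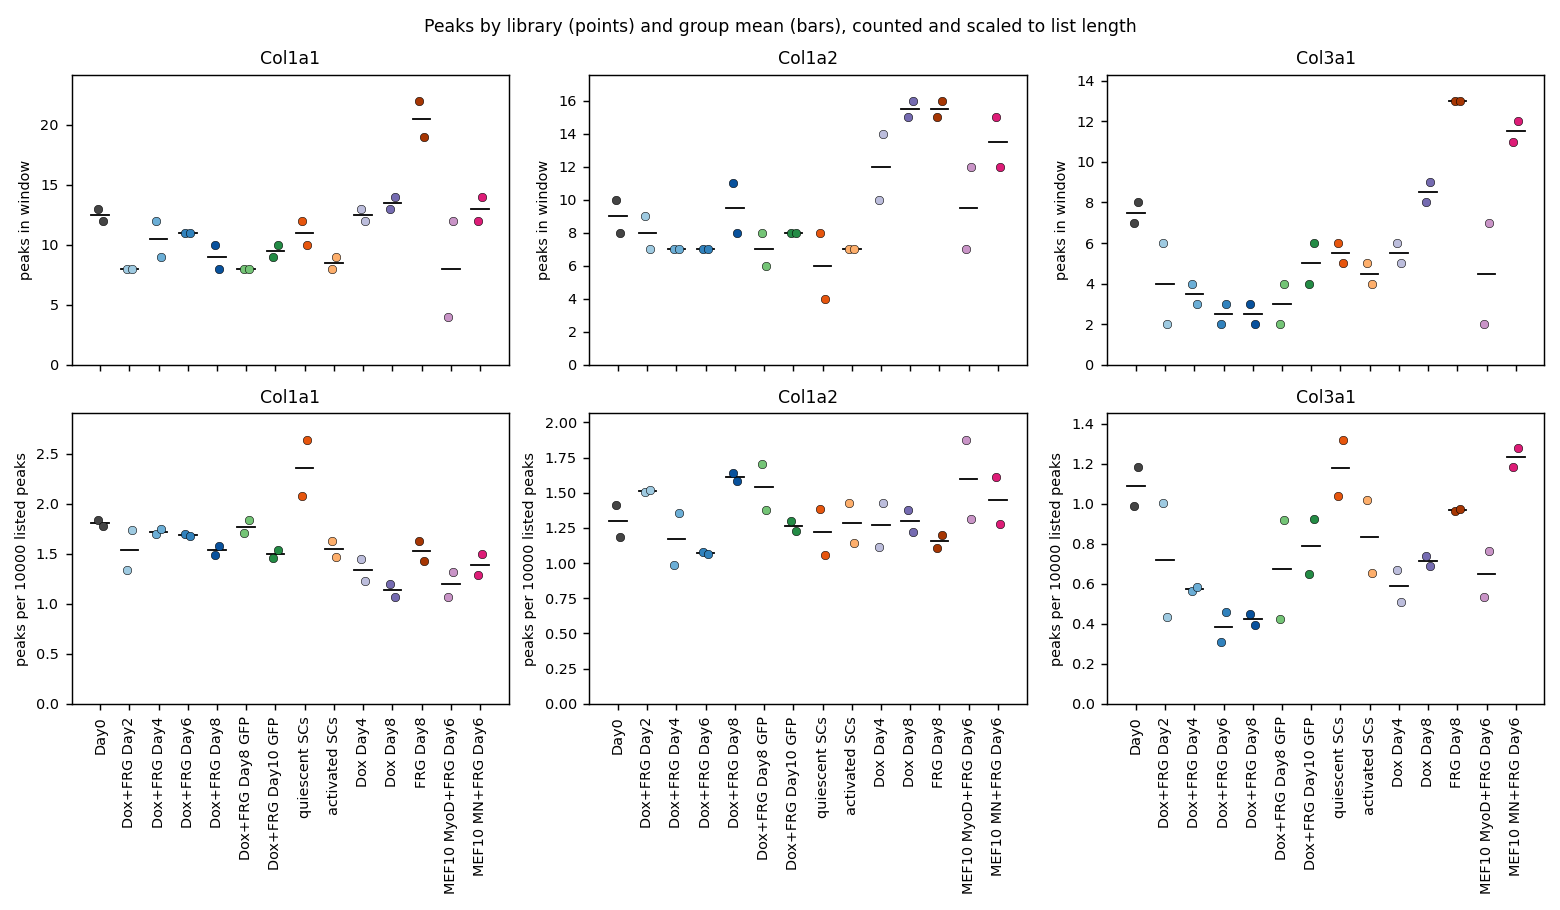
Peaks in each window by library, as counts (upper row) and per 10000 listed peaks (lower row), with groups on the x axis, points for libraries and a bar for the group mean. FRG and Dox day 8 stand high as counts and not once scaled, and Col3a1 is lowest on Dox+FRG days 6 and 8 in the scaled panel.

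Did the number of peaks at the collagen loci differ between day 0 and the treated fibroblasts? Day 0 was the only untreated MEF14 group. In each comparison of treated MEF14 libraries with day 0, and in the slope, treatment therefore cannot be told apart from days in culture. At Col3a1 the scaled values were 0.989 and 1.19 on day 0 and 0.448 and 0.395 on Dox+FRG day 8, groups that did not overlap. The number of Col3a1 peaks fell by 1.19 ± 0.31 (SE) on the log2 scale (limma on log2 of scaled peak counts with 0.5 added, Benjamini-Hochberg adjusted p = 0.00557 over 11077 features, the 3 windows and 11074 tiles of 150 kb). Of all features, 12.9% were called lower and 15.6% higher in this comparison, and the 1 of 3 windows called is read against that share. The fall was no longer called without day 0 replicate 2 (-1.06, adjusted p = 0.0605), and it was called on unscaled counts (-1.43, adjusted p = 0.0427). With only extended peaks counted, those broader than their list's commonest width, the direction reversed (1.43, adjusted p = 0.193), as did that of the slope (0.187). Over the 10 libraries of day 0 and Dox+FRG days 2 to 8, Col3a1 fell by 0.157 ± 0.0384 (SE) per day on the log2 scale (limma slope, adjusted p = 0.00688), where 12.1% of features were called lower and 13.7% higher. Leaving out each of the 10 libraries in turn kept the slope between -0.18 and -0.14 with adjusted p from 0.00205 to 0.0448.

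Covered bases at Col3a1 did not follow the peak number. The bases covered at Col3a1 were 2092 and 1336 on day 0 and 1569 and 1433 on Dox+FRG day 8, and as bp per Mb covered by the list 125 and 83.3 against 93.8 and 125, which overlap. In between, Dox+FRG day 2 covered 1152 and 410 bp (74.4 and 34.2 bp per Mb), below both day 0 libraries, and day 4 covered 1741 and 516 bp. On covered bases, a measure added after seeing that peaks differed in width, the day 8 difference was 0.09 ± 0.42 (SE, limma on the log2 scale, adjusted p = 0.900) and the slope 0.047 ± 0.0531 per day (adjusted p = 0.569). The regions that follow show which peaks these were.

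**Figure D3:**
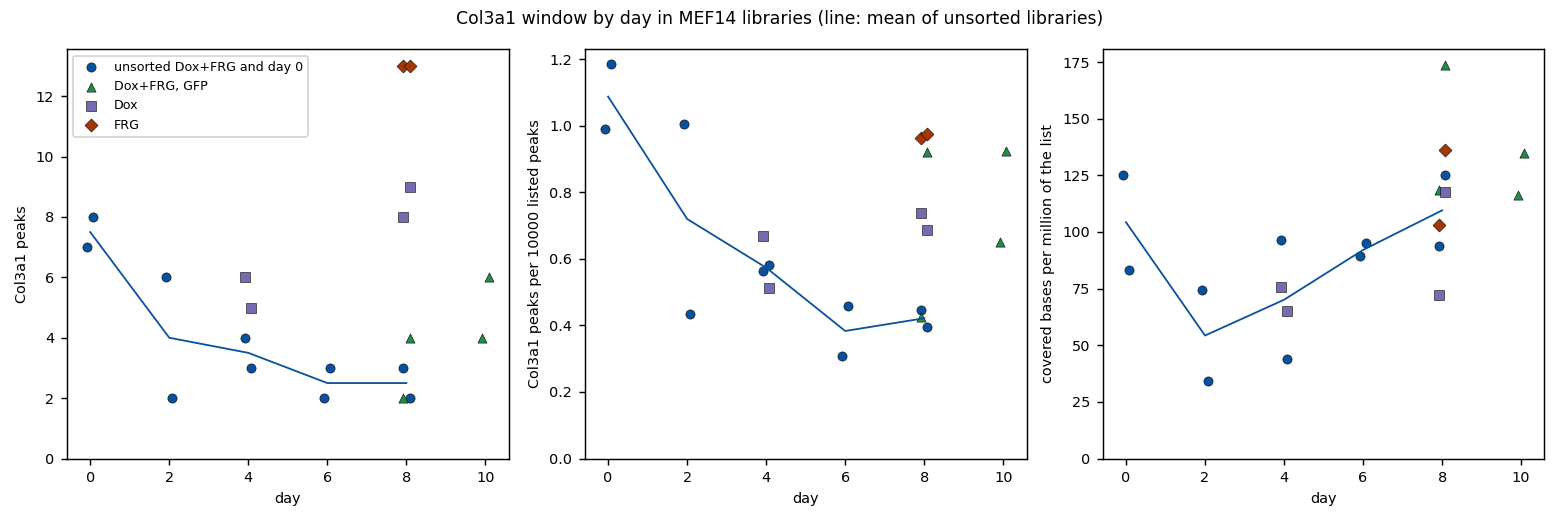
The Col3a1 window by day in MEF14 libraries: peaks (left), peaks per 10000 listed peaks (middle) and covered bp per Mb covered by the list (right), with 1 point per library and a line through the means of day 0 and the Dox+FRG libraries without GFP. The line falls from 7.5 to 2.5 peaks between day 0 and day 8, the covered bases per Mb are lowest on day 2 and higher again on day 8, and the FRG libraries have 13 peaks each.

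The Col1a1 and Col1a2 windows were not called in that comparison. Dox+FRG day 8 minus day 0 was -0.21 ± 0.16 (SE, limma) at Col1a1 (adjusted p = 0.344) and 0.31 ± 0.20 at Col1a2 (adjusted p = 0.254). The slopes on day were -0.015 ± 0.0198 at Col1a1 (limma, adjusted p = 0.607) and 0.0070 ± 0.0279 at Col1a2 (adjusted p = 0.881). For the GFP libraries of day 10 against day 0, none of the 3 windows was called: the differences were -0.25 ± 0.16 (limma, SE) at Col1a1, -0.02 ± 0.20 at Col1a2 and -0.43 ± 0.31 at Col3a1, with adjusted p of 0.257, 0.937 and 0.308. Over all features 15.3% were called higher and 13.9% lower there.

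Doxycycline without the small molecules gave a lower share of peaks at Col1a1 and no lower count. The scaled Col1a1 values were 1.84 and 1.78 on day 0 and 1.20 and 1.07 on Dox day 8, a fall of 0.68 ± 0.16 (SE) on the log2 scale (limma, adjusted p = 0.00664), in a comparison where 6.11% of features were called lower and 7.79% higher. The counts behind it were 13 and 12 against 13 and 14, and the unscaled difference was 0.11 (adjusted p = 0.788), while the median tile rose by 0.72 unscaled. The call was lost without day 0 replicate 1 (adjusted p = 0.0550) or without Dox day 8 replicate 2 (adjusted p = 0.0811). At Col1a2 the Dox day 8 difference was -0.03 ± 0.20 (limma, adjusted p = 0.942) and at Col3a1 -0.62 ± 0.31 (adjusted p = 0.183). With the small molecules alone no window was called: FRG day 8 minus day 0 was -0.27 ± 0.16 at Col1a1, -0.20 ± 0.20 at Col1a2 and -0.20 ± 0.31 at Col3a1 (limma, SE), with adjusted p of 0.277, 0.547 and 0.712, where 6.01% of features were called higher and 8.16% lower. On unscaled counts all 3 directions reversed (0.69, 0.76 and 0.76), and Col1a2 was called higher (adjusted p = 0.0403), as were 44.6% of features.

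Adding the small molecules to doxycycline, Dox+FRG day 8 minus Dox day 8, gave 0.47 ± 0.16 (SE) at Col1a1 (limma, adjusted p = 0.0542, with 7.90% of features called higher and 5.85% lower), 0.34 ± 0.20 at Col1a2 and -0.57 ± 0.31 at Col3a1 (adjusted p = 0.263 and 0.220). The Col1a1 value passed the threshold of 0.05 with a pseudocount of 1 (adjusted p = 0.0393) and in a fit without MEF10 MyoD+FRG replicate 2 (adjusted p = 0.0343). On unscaled counts its direction reversed (-0.57), as did that of Col1a2 (-0.69), and Col3a1 was called lower (-1.60, adjusted p = 0.00846), as were 52.4% of all features. The GFP libraries of day 8 against the Dox+FRG libraries of that day gave 0.21 ± 0.16, -0.05 ± 0.20 and 0.55 ± 0.31 at Col1a1, Col1a2 and Col3a1, none called (limma, adjusted p = 0.461, 0.925 and 0.285), where 3.12% of features were called higher and 6.64% lower.

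Against satellite cells, Col1a1 was the window that differed in peak number. The scaled Col1a1 values were 2.07 and 2.64 in quiescent cells, 1.63 and 1.47 in activated cells and 1.46 and 1.54 in the GFP libraries of day 10. Quiescent cells thus stood above both other groups. The difference of day 10 GFP from quiescent cells was -0.63 ± 0.16 (SE, limma, adjusted p = 0.00435), where 12.3% of features were called lower and 18.6% higher, and that of activated from quiescent cells was -0.58 ± 0.16 (adjusted p = 0.00563), where 19.2% were called lower. Both calls were lost without quiescent replicate 2, the shortest satellite cell list (adjusted p = 0.0977 and 0.112), and the second also without activated replicate 2 (adjusted p = 0.0592). On covered bases the second was called (-0.75, adjusted p = 0.0491) and the first was not (-0.28, adjusted p = 0.551). On unscaled counts neither was called (-0.20, adjusted p = 0.703, and -0.35, adjusted p = 0.441). Quiescent cells minus day 0 gave 0.38 ± 0.16 at Col1a1 (limma, adjusted p = 0.0594), -0.05 ± 0.20 at Col1a2 and 0.14 ± 0.31 at Col3a1 (adjusted p = 0.857 and 0.729), where 20.9% of features were called higher and 23.1% lower. The Col1a1 value was called without quiescent replicate 1 (0.56, adjusted p = 0.0205), and its direction reversed on unscaled counts (-0.18), covered bases (-0.29) and extended peaks (-0.69).

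Covered bases at Col1a2 differed between quiescent satellite cells and both day 0 and day 10 GFP libraries, where peak number was not called different. Per Mb covered by the list, in bp, Col1a2 had 171 and 77.1 in quiescent cells and 108 and 110 in activated cells. It had 246 and 227 on day 0, 348 and 353 on Dox+FRG day 6, 417 and 477 in the GFP libraries of day 8 and 425 and 345 in those of day 10. Each of these 4 groups lay above all 4 satellite cell libraries. The Dox libraries, at 178 to 215, lay just above the highest of them, and MEF10 MyoD+FRG replicate 2, at 145, lay below it. Day 10 GFP minus quiescent cells was 1.64 ± 0.29 (SE, limma on covered bases, adjusted p = 0.000181), where 14.8% of features were called higher. It remained called on leaving out each library compared (1.13 to 2.14, adjusted p from 4.28e-05 to 0.0138). Quiescent cells minus day 0 was -0.95 ± 0.29 (limma, adjusted p = 0.0117), where 20.2% of features were called lower. That call was lost without quiescent replicate 2 (-0.45, adjusted p = 0.320) or without day 0 replicate 1 (-0.90, adjusted p = 0.0717).

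To place the peaks, overlapping peaks of all 28 lists (1 bp or more) were joined into 253225 regions, of which 67 overlapped the windows: 24 at Col1a1, 24 at Col1a2 and 19 at Col3a1. They are numbered from 1 in each window in order along the chromosome, with positions in mm9. Of the 67, 7 were called in all 28 libraries (10.4%, against 5.55% of all regions). A single library called 11 of the 67, where 24.6% of all regions were called in a single library. In a comparison, a region present in 2 libraries of the named group and in 0 of its comparator counted as gained, and the reverse as lost, with too few libraries for a test per region.

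The 7 regions called in every library were Col1a1 regions 7 (chr11:94787903-94790584), 16 (chr11:94840004-94840822) and 20 (chr11:94850723-94856015), Col1a2 regions 2 (chr6:4406023-4408099), 5 (chr6:4438192-4440461) and 9 (chr6:4454535-4458041), and Col3a1 region 10 (chr1:45367912-45371366). Called by 27 libraries were Col1a1 regions 5 (chr11:94777056-94779350) and 9 (chr11:94797445-94799684), each missing from MEF10 MyoD+FRG replicate 1. At Col3a1 the next most frequent was region 16 (chr1:45411956-45413573), called by 22 libraries and by neither library of Dox day 4. These last 3 regions lie outside the naming rule and were chosen after their values were seen.

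Day 0 fibroblasts called 24 window regions in both libraries, and for most groups the share kept lay near that of the 57069 day 0 regions of the series. FRG kept 23 of the 24 in both libraries (95.8%, series 87.2%) and had none in neither (series 9.53%). MEF10 MN+FRG kept 20 (83.3%, series 78.5%) and Dox day 8 kept 19 (79.2%, series 77.9%). Further below the series lay Dox day 4 with 13 kept (54.2%, series 65.8%) and MEF10 MyoD+FRG with 9 (37.5%, series 45.1%). Dox+FRG day 8 kept 12 (50.0%, series 48.7%) and had 10 in neither library (41.7%, series 40.2%). The share in neither library was above the series on Dox+FRG day 4 (41.7%, series 28.2%) and Dox day 4 (37.5%, series 25.1%). It was below the series in quiescent satellite cells (37.5%, series 45.1%) and some other groups. The GFP libraries of day 10 kept 13 (54.2%, series 53.8%), quiescent satellite cells 12 (50.0%, series 42.1%) and activated ones 12 (50.0%, series 50.5%). By locus, Dox+FRG day 8 kept 7 of 11 at Col1a1, 4 of 8 at Col1a2 and 1 of 5 at Col3a1.

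Dox+FRG day 8 gained 3 and lost 10 of 27 window regions against day 0, where the series gained 20.0% and lost 30.6%. Without Dox+FRG day 8 replicate 2, the shorter list of the pair, 10 regions counted as gained. The lost regions were 4 at Col1a1, 3 at Col1a2 and 3 at Col3a1. At Col3a1 they were regions 2 (chr1:45326386-45326577), 9 (chr1:45365911-45366464) and 12 (chr1:45373074-45373259). Region 2 was called in both libraries of day 0, 1 of Dox+FRG day 2, and both of Dox day 8, FRG and MEF10 MN+FRG, and in no other library. Region 12 was called in both libraries of day 0, FRG and MEF10 MN+FRG and in 1 library of each Dox day. No Dox+FRG library, with or without GFP, called region 9 or 12. All 3 were 554 bp wide or less.

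At Col1a2 the regions lost by Dox+FRG day 8 were 4 (chr6:4433935-4434488), 8 (chr6:4453220-4453390) and 13 (chr6:4480839-4481338). Region 4 was called in both libraries of day 0, Dox+FRG day 2 and FRG and nowhere else, so it was shared by the early course and the small molecules. Region 8 was called in both libraries of day 0, Dox day 8, FRG and MEF10 MN+FRG only. Region 13 was called in both libraries of day 0, activated satellite cells, Dox day 8, FRG and MEF10 MN+FRG. It was also called in 1 library each of Dox+FRG day 2, quiescent satellite cells and MEF10 MyoD+FRG.

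At Col1a1 the lost regions were 8 (chr11:94794970-94795175), 13 (chr11:94819349-94819888), 14 (chr11:94831570-94831781) and 23 (chr11:94865357-94866548). Region 8 was called in both day 0 libraries, both FRG libraries and 1 of Dox day 8. Region 13 was called in both libraries of day 0, quiescent satellite cells and FRG and in 1 of Dox+FRG day 2, and region 14 in both libraries of day 0, FRG and MEF10 MN+FRG and 1 each of day 10 GFP and Dox day 8. Region 23, called in both libraries on day 0 and on Dox+FRG days 4 and 6, was in neither library of Dox+FRG day 8 or of either GFP group.

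The regions gained by Dox+FRG day 8 were Col1a1 region 15 (chr11:94834299-94835092) and Col1a2 regions 16 (chr6:4502119-4502780) and 19 (chr6:4511047-4512096). Col1a1 region 15 was called in no day 0 or FRG library, in 1 of Dox+FRG day 2, and in both libraries of every other group, satellite cells included. Col1a2 region 19 was called in no day 0 library, in 1 quiescent library and in both libraries of each other group. It joined separate stretches: the FRG peaks, chr6:4511798-4511876, overlapped none of the Dox+FRG peaks, with or without GFP, which lay within chr6:4511265-4511553. The share of all regions with such a separation was not computed. Col1a2 region 16 was called in both libraries of Dox+FRG days 4, 6 and 8, of Dox days 4 and 8, of activated satellite cells and of MEF10 MyoD+FRG, and in no GFP, quiescent, FRG, MEF10 MN+FRG, day 0 or Dox+FRG day 2 library. Col1a1 region 12 (chr11:94815196-94816273), outside the naming rule and singled out after its values were seen, was called only in Dox+FRG, in both libraries of days 4 and 6 and 1 of day 8.

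**Figure D4:**
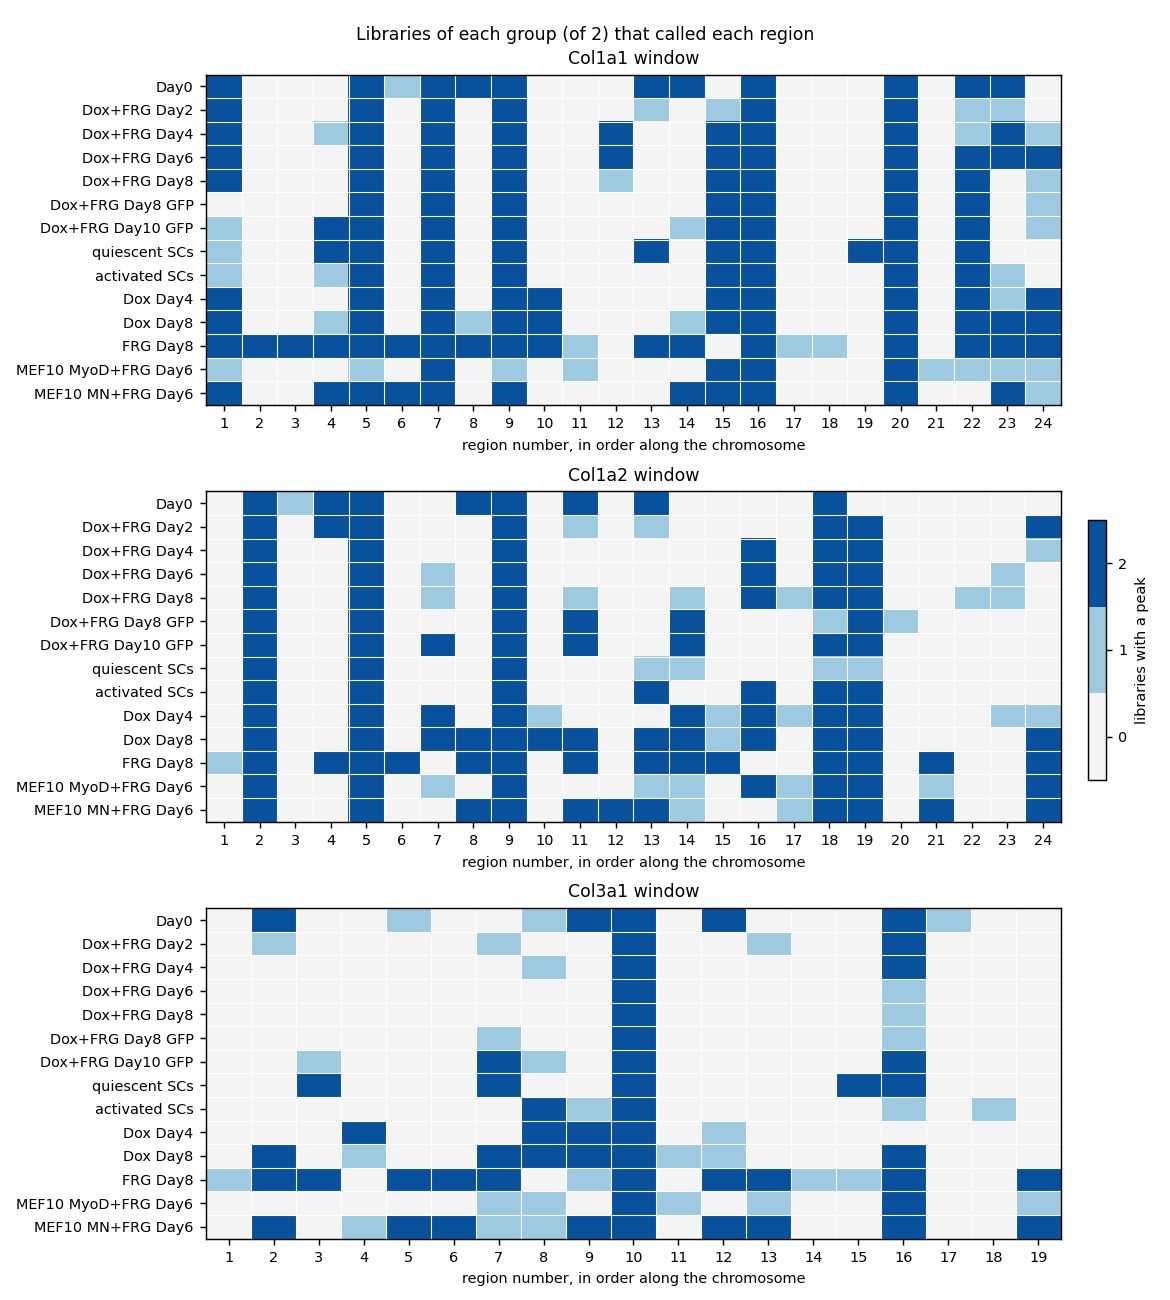
Number of libraries of each group (0, 1 or 2, by shade) that called each region, with the regions of each window numbered along the x axis and the groups as rows. The 7 regions called everywhere form full dark columns, FRG has the fullest rows, and Col3a1 of Dox+FRG days 6 and 8 is dark at region 10 alone.

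The GFP libraries of day 10 gained 6 and lost 9 of 30 window regions against day 0 (series 23.6% and 28.5%). Of the 10 regions lost by Dox+FRG day 8, all were also lost there except Col1a1 region 14, which 1 day 10 GFP library called. The gained ones were Col1a1 regions 4 and 15, Col1a2 regions 7, 14 and 19 and Col3a1 region 7. Col1a1 region 4 (chr11:94774721-94775289) and Col3a1 region 7 (chr1:45356520-45357420) were also called by both quiescent satellite cell libraries and by both FRG libraries. Both MEF10 MN+FRG libraries called Col1a1 region 4 as well, and both Dox day 8 libraries called Col3a1 region 7. Col1a2 regions 7 (chr6:4446381-4446880) and 14 (chr6:4494684-4496323) were called by all 4 Dox libraries, and region 14 also by both FRG libraries. Within the Dox+FRG series, region 14 was called in both libraries of the GFP groups of days 8 and 10 and in 1 library of day 8 without GFP. Both comparisons share the day 0 libraries.

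Dox day 8 gained 10 and lost 2 of 35 window regions against day 0 (series 39.7% and 6.63%), and FRG gained 16 and lost none of 42 (series 43.0% and 4.49%). The regions lost by Dox day 8 were Col1a1 region 13 and Col1a2 region 4. Those gained by FRG were spread over the windows, 5 at Col1a1, 6 at Col1a2 and 5 at Col3a1. Regions in both FRG libraries and in no other library were Col1a1 regions 2 (chr11:94752570-94752651) and 3 (chr11:94758439-94758547) and Col1a2 region 6 (chr6:4443819-4443883), each 109 bp wide or less. Col1a1 region 10 (chr11:94800722-94800854) was called in all 6 libraries of Dox and FRG and in none with doxycycline and the small molecules together, nor on day 0. Dox+FRG day 8 against Dox day 8 gained none and lost 10 of 30 (series 1.94% and 39.6%), and day 8 GFP against Dox+FRG day 8 gained none and lost 2 of 17 (series 5.15% and 19.2%). Leaving out a library moved the small counts: Dox day 8 lost 5 without its replicate 2 and 4 without either day 0 library, FRG lost 2 without day 0 replicate 1 and 1 without day 0 replicate 2 or FRG replicate 1. Without Dox+FRG day 8 replicate 2, that group gained 4 against Dox day 8 and day 8 GFP lost 7 against it, and day 8 GFP gained 1 whichever of the 4 libraries was left out.

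Where quiescent satellite cells were the comparator, few window regions were gained. Day 10 GFP against quiescent satellite cells gained 2 and lost 3 of 23 (8.70% and 13.0%, series 27.5% and 9.97%), and activated against quiescent cells gained 2 and lost 5 of 23 (8.70% and 21.7%, series 26.2% and 16.4%). The gained counts were 5 in both comparisons without quiescent replicate 1, 4 without day 10 GFP replicate 1 and 4 without activated replicate 1. Quiescent cells against day 0 gained 6 and lost 9 of 30 (20.0% and 30.0%, series 14.1% and 37.3%). Col1a1 region 19 (chr11:94850172-94850381) was called in both quiescent libraries and in no other library. Col3a1 regions 3 (chr1:45332935-45333234) and 15 (chr1:45377931-45378525) were called in both quiescent libraries and in neither activated one. Region 3 was also called in both FRG libraries and 1 day 10 GFP library, and region 15 in 1 FRG library.

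Merging joined peaks that did not coincide, so the extent of peaks was examined within some wide regions, picked after the lists were seen. These are not all of the widest: Col1a1 regions 1 and 5, 2780 and 2295 bp wide, are not described. In Col1a1 region 7 the day 0 peaks covered 920 and 971 bp, from chr11:94789402 on. All 12 Dox+FRG libraries, with and without GFP, had in its place a peak of 160 to 205 bp at the far end, starting at 94790156 or later. The 4 Dox libraries covered 881 to 1018 bp there, the FRG libraries 1288 and 2287 bp, the quiescent satellite cells 1056 and 1292 bp and the activated ones 173 and 1088 bp. The Dox+FRG libraries overlapped with none of the day 0, Dox, FRG or quiescent libraries in covered bases. Their narrow width is the most common width of each of their lists. The share of all regions that separate these groups in this way was not computed.

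In Col1a1 region 9 the day 0 peaks lay apart from those of most other groups, satellite cells included. The day 0 peaks spanned chr11:94797445-94797651. In all 12 Dox+FRG libraries, the 4 Dox libraries, the 4 satellite cell libraries and both MEF10 MN+FRG libraries the peak started at 94798186 or beyond. None of these libraries had a peak at the day 0 place. Their peaks and those of day 0 had the most common width of their list, except in Dox day 8 replicate 1 (328 bp). The share of all regions with such a separation was not computed. The FRG libraries had 1 wide peak of 1040 and 1216 bp that spanned both places, from 94797497 to 94798747. The call of this region in 27 libraries therefore joined stretches that did not overlap between day 0 and most other groups.

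In Col1a2 region 5 the 24 fibroblast-derived libraries covered 344 to 2270 bp with a median of 1695.5 bp. The 4 satellite cell libraries covered 172 to 182 bp at 1 edge, chr6:4438384-4438621. That narrow width is the most common width of each satellite cell list, and the share of all regions with this contrast was not computed. The 2 fibroblast-derived libraries at 344 bp, replicate 2 of Dox+FRG days 4 and 8, had a pair of narrow peaks at the 2 ends of the stretch that other libraries joined. GFP libraries covered 1178 to 1699 bp here, nearer to day 0 (1723 and 1717 bp) than to satellite cells. In Col1a1 region 20 satellite cells likewise had narrow peaks of 172 to 360 bp in all 4 libraries, against 1196 and 1217 bp on day 0, but 1 Dox+FRG library each of days 2, 4 and 8 also had a peak of 172 to 205 bp. Dox day 4 replicate 1 covered 312 bp there in 4 peaks, day 8 GFP replicate 2 364 bp and FRG replicate 1 421 bp.

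Col1a2 region 9 widened in the Dox+FRG course. Day 0 covered 306 and 167 bp in it, Dox+FRG days 4 and 6 covered 1908 to 2093 bp in 4 of 4 libraries, and the 4 GFP libraries 2006 to 2152 bp. Day 2 was split, with 2149 and 205 bp, and day 8 without GFP lay between, with 987 and 815 bp. Dox covered 660 to 989 bp and FRG 917 and 939 bp, and the satellite cells 344 and 360 bp (quiescent) and 173 and 182 bp (activated). The GFP and Dox+FRG day 4 and 6 libraries did not overlap with the satellite cells or day 0. Here too, the share of all regions with such a separation was not computed.

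Col3a1 region 10 held a narrow and a broad peak in most libraries. The region covered 1389 and 1433 bp on Dox+FRG day 8, 1385 and 344 bp on day 4, 1418 and 1329 bp on day 6 and 1322 to 1418 bp in the GFP libraries, against 1327 and 334 bp on day 0 and 384 and 205 bp on Dox+FRG day 2. The broad peak was thus called in 1 of 2 libraries on day 0 and on Dox+FRG day 4 and in neither on day 2, where regions 9 and 12 were already missing. Dox covered 1161 to 1754 bp and FRG 1098 and 1149 bp. Satellite cells were split within each group, 1367 and 172 bp in quiescent cells and 364 and 1416 bp in activated ones.

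**Figure D5:**
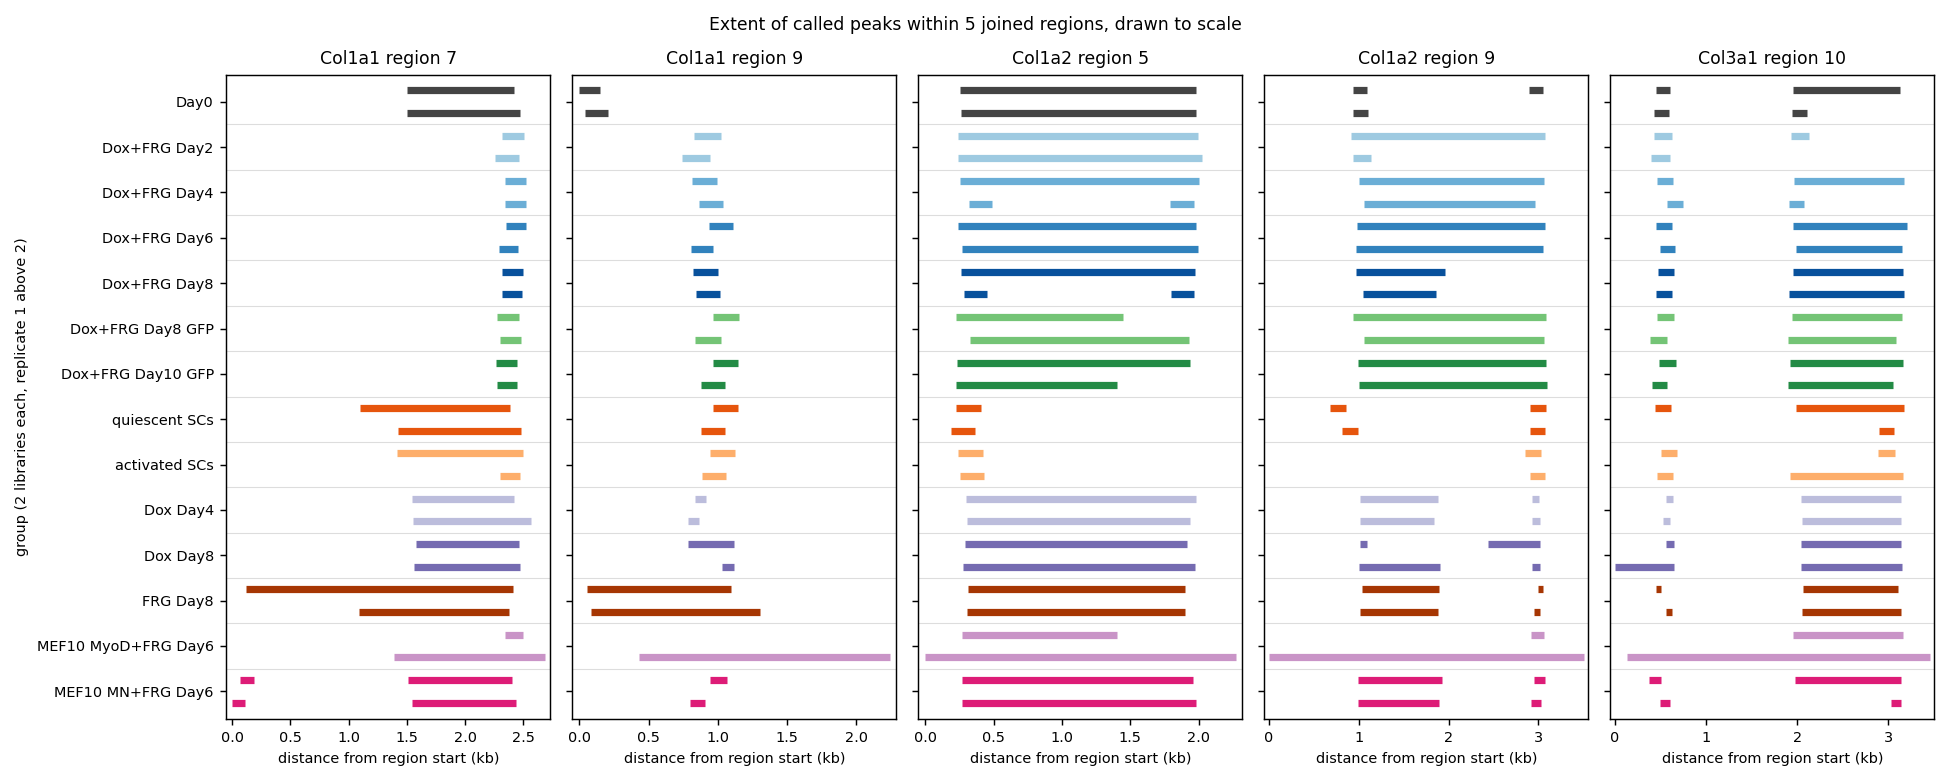
Called peaks within 5 wide regions, drawn to scale as bars, with distance from the region start in kb on the x axis and the 28 libraries as rows. The Dox+FRG bars are short in Col1a1 region 7 (160 to 205 bp), the day 0 bars stand apart in Col1a1 region 9, and the satellite cell bars are short in Col1a2 region 5 (172 to 182 bp) where nearly all fibroblast-derived bars are long.

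Counted in bins of 100 bp, also chosen after the lists were seen, Col1a2 was compared between quiescent satellite cells and the day 10 GFP and day 0 libraries. Of 51 Col1a2 bins called in both libraries of day 10 GFP or of quiescent satellite cells, 40 were in both GFP and neither quiescent libraries (78.4%, series 30.8%) and none in the reverse (series 15.6%). Of 39 Col1a2 bins in quiescent cells or day 0, 30 were lost in quiescent cells (76.9%, series 39.9%) and none gained. At Col1a1, Dox+FRG day 8 lost 22 of 43 bins against day 0 (51.2%, series 35.2%) and gained 3 (6.98%, series 23.3%), and quiescent cells lost 24 of 47 (51.1%, series 39.9%). The GFP libraries gained Col1a2 bins also within the fibroblast course: day 10 GFP gained 24 of 64 against day 0 (37.5%, series 27.1%) and lost 8 (12.5%, series 32.8%), and day 8 GFP gained 16 of 55 against Dox+FRG day 8 (29.1%, series 8.73%) and lost 10 (18.2%, series 22.1%). Against Dox day 8, Dox+FRG day 8 lost 25 of 50 Col1a1 bins (50.0%, series 43.9%) and gained 3 (6.0%, series 10.2%). At Col3a1, Dox+FRG day 8 lost 4 of 19 bins against day 0 (21.1%, series 35.2%) and gained 1 (5.26%, series 23.3%). Both shares lay below those of the series, so the lower peak number there did not appear as a larger share of lost bins. These are shares of bins that lie side by side and are given without a test.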

How the data were processed

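ATAC-seq peak lists of 28 mouse libraries were analysed. The deposited files are other data than counts or signal: each holds peak positions (chromosome, start, end) of 1 library on mm9, with no score. BWA and HOMER are the authors' tools per the submitters' processing notes; versions, thresholds, read filters and a shift of cut sites: not given in the sources used here. Starts count from 0 in the lists and from 1 in the text.

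Peaks were counted in 3 windows and in tiles of 150 kb with a mean of at least 2 peaks, taken as log2((peaks + 0.5)/(list peaks + 1) × 10000) and fitted with limma 3.58.1 (trend, R 4.3.3) over all 28 libraries, two-sided, with Benjamini-Hochberg adjustment over 11077 features and a threshold of 0.05. The slope used 10 libraries. Counting, merging and figures used Python 3.11.15 with pandas 2.3.3. The model, the merging of peaks and the rule for gained and lost regions were tested on simulated data. Covered bases were taken as log2((bp + 100) per Mb covered).

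Regions named were those called in all 28 libraries, gained or lost in at least 1 of 9 comparisons, or found in both libraries of 1 group alone, and others are said to be chosen after their values were seen. The members, windows and lists were chosen with earlier results of these data known. Alternatives were peak middles, extended peaks (those broader than their list's commonest width), unscaled counts, another pseudocount, all tiles with a peak, a replicate block, covered bases and each library left out. A planned description of related matrix genes and of genes with a like pattern needed an mm9 annotation and was not run.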

Additional observations from a re-analysis of the deposited data

How the results depend on the processing

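Settings were changed one at a time, and covered bases were added after seeing the data. All values are log2 differences, or slopes per day, with limma's Benjamini-Hochberg adjusted p where a call changed, and the cause of a change was not tested. Counting peak middles, testing every tile with a peak and the replicate block left all 30 window results on their side of the threshold and in their direction. With the replicate block Col3a1 on Dox+FRG day 8 against day 0 was -1.19 (adjusted p = 0.00663). The replicate numbers did not pair the libraries: over 91 pairs of groups the correlations of deviations ran from -0.222 to 0.160. Depth is unknown, so a missing peak may be an uncalled one.

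With extended peaks only, directions reversed for Col3a1 on Dox+FRG day 8 against day 0 (1.43), in slope (0.187), on day 10 GFP against day 0 (1.31), FRG (0.13), Dox+FRG against Dox (1.76) and day 10 GFP against quiescent cells (0.23), for Col1a2 on day 10 GFP against day 0 (1.01) and day 8 GFP (0.78), and for Col1a1 on day 10 GFP against quiescent cells (0.17) and quiescent cells against day 0 (-0.69). Calls were lost for Col1a1 on Dox day 8 (-1.15, adjusted p = 0.261) and activated against quiescent cells (-0.73, 0.515), and gained for Col1a2 on day 10 GFP against quiescent cells (1.82, 0.0468). Extended regions gained and lost were 1 and 2 on Dox+FRG day 8, 1 and 2 on day 10 GFP, 3 and 0 on Dox day 8, 1 and 1 for day 8 GFP, 4 and 1 for day 10 GFP against quiescent cells, 0 and 0 for activated against quiescent cells, 0 and 4 for quiescent cells against day 0, with 4 lost for Dox+FRG against Dox.

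Without scaling, the median tile shifted by 0.72 for Dox day 8, 0.88 for FRG and -0.94 for Dox+FRG against Dox. Directions reversed on Dox day 8 for Col1a1 (0.11), Col1a2 (0.76) and Col3a1 (0.17), on FRG for Col1a1 (0.69), Col1a2 (0.76, adjusted p = 0.0403) and Col3a1 (0.76), for Dox+FRG against Dox at Col1a1 (-0.57) and Col1a2 (-0.69), for day 8 GFP at Col1a1 (-0.15), for quiescent cells against day 0 at Col1a1 (-0.18) and Col3a1 (-0.42), and for the Col1a2 slope (-0.0020). Col1a1 lost its calls on day 10 GFP (-0.20) and activated cells (-0.35) against quiescent cells, and Col3a1 gained one for Dox+FRG against Dox (-1.60).

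On covered bases, directions reversed for Col3a1 on Dox+FRG day 8 (0.093), in slope (0.047), on day 10 GFP against day 0 (0.28), FRG (0.16) and Dox+FRG against Dox (0.27), for Col1a2 on day 10 GFP against day 0 (0.68), day 8 GFP (0.68) and activated against quiescent cells (-0.10), and for Col1a1 on quiescent cells against day 0 (-0.29). Calls were lost for Col1a1 on Dox day 8 (-0.66, adjusted p = 0.127) and day 10 GFP against quiescent cells (-0.28) and gained for Col1a2 on day 10 GFP against quiescent cells (1.64) and quiescent cells against day 0 (-0.95). A pseudocount of 1 gave a call for Col1a1 on Dox+FRG against Dox (0.49) and reversed Col1a2 on day 10 GFP against quiescent cells (-0.0092). Without MEF10 MyoD+FRG replicate 2, Col1a1 was called for Dox+FRG against Dox (0.47) and quiescent cells against day 0 (0.38, adjusted p = 0.0438). Joining peaks at 50% overlap, or without that library, kept all 18 region counts within 1.5 times.

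Leaving out each library in turn gave ranges of -1.31 to -1.06 for Col3a1 on Dox+FRG day 8. Col1a2 ranged from -0.14 to 0.094 on day 10 GFP against day 0, -0.15 to 0.091 on Dox day 8, -0.18 to 0.091 for day 8 GFP, -0.13 to 0.18 for day 10 GFP and -0.11 to 0.21 for activated cells against quiescent cells, -0.20 to 0.10 for quiescent cells against day 0 and -0.012 to 0.016 in slope. Col1a1 ranged from -0.76 to -0.60 on Dox day 8, -0.81 to -0.45 for day 10 GFP and -0.76 to -0.40 for activated cells against quiescent cells, and 0.20 to 0.56 for quiescent cells against day 0, where Col3a1 ranged from -0.040 to 0.33. Gained regions ranged from 3 to 10 on Dox+FRG day 8, 0 to 4 against Dox, 1 to 1 for day 8 GFP and 2 to 5 for day 10 GFP and for activated cells against quiescent cells. Lost regions ranged from 2 to 5 on Dox day 8, 0 to 2 on FRG and 2 to 7 for day 8 GFP.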
